A study of Mus musculus with 10 samples.

Results

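The genes named Zfp900 to Zfp999 are numbered mouse zinc finger genes. They were chosen by symbol: every array feature (a transcript cluster, the set of probes that reads a gene) whose platform annotation gives exactly 1 symbol, and that symbol in this range, was taken. That gave 52 transcript clusters for 47 genes, of 22180 genes measured in the series. Within the range, the measured value used was the mean over the 10 arrays, which selected 1 cluster for each of the 4 genes that had several. The range itself was chosen with earlier results of these data known. Counts over the 47 genes are given as descriptions, with no test of the list. RefSeq lists 62 genes in this range. Of the 15 that are not members, 9 are read only by clusters that carry several symbols, and 6 were on no cluster. All 47 members are annotated as protein coding, and they lie on 12 chromosomes.

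Many mouse genes with this kind of name encode proteins with a KRAB domain followed by an array of C2H2 zinc fingers. The fingers bind chosen DNA sequences, often within endogenous retroviruses and other mobile elements, and the KRAB domain recruits the co-repressor encoded by Trim28, which brings histone H3 lysine methylation and heterochromatin proteins to the site. The genes have multiplied by tandem duplication, so neighbours on a chromosome are often near-identical copies, and several clusters of them are active in early embryos and embryonic stem cells, where they hold retroviral elements silent.

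The study measured 10 mouse samples on Affymetrix arrays: 4 of undifferentiated embryonic stem cells, 3 of hepatocyte-like cells made from embryonic stem cells, and 3 of adult hepatocytes from liver. All samples are labelled as strain C.FVB with the transgene Tg(CAG-luc, GFP)L2G85Chco and the line suffix FathJ, so the controls too carry a transgene in which the widely active CAG promoter drives luciferase and GFP. The labels call the samples biological replicates and give no ages or further origin, so a p-value here reflects only how far these samples spread. Values are log2 levels, and a difference of 1 is a doubling of the signal. A gene was called, and is said to have risen or fallen, at an adjusted p under 0.05 together with a log2 difference of at least 1 (limma over all 22180 genes, Benjamini-Hochberg adjustment). In these bulk samples, fewer cells of a type and less RNA per cell cannot be told apart.

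The cell kinds were checked against marker lists. Pluripotency markers had a mean of 9.26 to 9.31 on the stem cell arrays, 4.69 to 5.66 on the hepatocyte-like arrays and 4.67 to 4.91 on the adult arrays, with Dppa5a low on every array. Hepatocyte markers had a mean of 12.5 to 12.6 on the adult arrays, against 5.57 to 7.33 on the hepatocyte-like arrays and 4.49 to 4.84 on the stem cell arrays. In the hepatocyte-like cells 3 of 7 hepatocyte markers were called higher than in stem cells, and Cyp7a1, the rate-limiting enzyme of bile acid synthesis, lay between 2.79 and 3.14 on their arrays and between 2.75 and 3.43 on the stem cell arrays. Their stromal markers were higher than in stem cells for 5 of 6 genes, with a mean of 8.76 to 11.2. In the adult samples 5 of 5 macrophage markers and 3 of 4 endothelial markers were higher than in stem cells. The remaining endothelial marker, Pecam1, was called lower than in stem cells in adult (-2.23) and hepatocyte-like samples (-3.07). Of 3 lymphocyte markers, 1 was higher in the adult samples (Ptprc, 1.16) and 1 lower (Cd3e, -2.09). In the hepatocyte-like samples Cd3e was lower than in stem cells as well (-2.31). The endothelial marker Cdh5 (1.72) and the macrophage marker Csf1r (1.01) were higher there than in stem cells. Hepatocyte-like replicate 3 stood apart in its markers, with 7.12 for Nanog and 10.80 for Alb. The part of these other cells in the results was not tested.

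The arrays of a cell kind did not read the members alike. Stem cell replicates 1 and 3 were both above replicates 2 and 4 for 36 of 47 members (76.6%), against 23.5% of all genes and 43.9% of 289 other numbered Zfp genes. The mean of replicates 1 and 3 exceeded that of 2 and 4 by a median of 0.73 over the members, and by 1.39 over the 8 members grouped on chromosome 4. Over all genes the median of that gap was -0.02. Adult replicate 1 was the highest adult array for 34 of 47 members (72.3%), against 38.6% of all genes. The part of these arrays in the results was not tested, and the members' medians and counts are also given without those of them that enter a comparison.

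**Figure D1:**
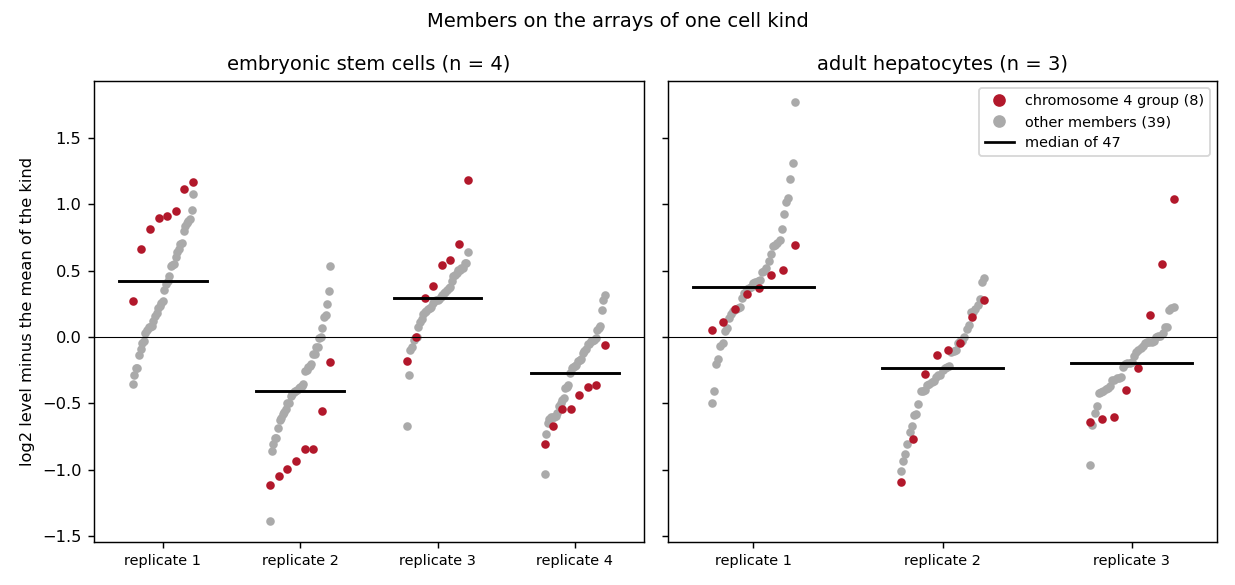
Each point is a member's log2 level on an array minus its mean over the arrays of that cell kind (vertical axis), for the 4 embryonic stem cell arrays and the 3 adult hepatocyte arrays (horizontal axis); black bars are medians of the 47 members, red points the 8 members of the chromosome 4 group. Stem cell replicates 1 and 3 lie mostly above zero and replicates 2 and 4 mostly below, and adult replicate 1 lies above the other adult arrays for most members.

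Members of the family were more often low than high in both hepatocyte kinds. Compared with stem cells, 12 of 47 members fell in the hepatocyte-like cells, 25.5% beside 7.35% of all genes tested, and 1 rose, 2.13% beside 8.61% of all genes. In adult hepatocytes 17 members fell against stem cells, 36.2% beside 15.6% of all genes, and 3 rose, 6.38% beside 11% of all genes. These comparisons share the stem cell arrays, so their counts are not independent of each other. Arrays of hepatocyte-like and stem cells did not overlap for 17 members that were lower and 3 that were higher, beside 17.5% and 17.2% of all genes. For adult hepatocytes these were 20 and 6 members, beside 24.5% and 22.4%. The other 289 numbered Zfp genes had 31 that fell and 14 that rose in the hepatocyte-like cells, and 68 that fell and 8 that rose in adult hepatocytes.

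The median log2 difference of the members was -0.32 in hepatocyte-like cells against stem cells, where the median of all genes was -0.01, and -0.55 in adult hepatocytes against stem cells, where that of all genes was 0.05. Without stem cell replicates 1 and 3 these medians were -0.0225 and -0.183, and the counts of members that fell were 9 and 13. Without adult replicate 1 the adult median was -0.779, 21 members fell in adult hepatocytes and 1 rose. Without stem cell replicates 2 and 4 the medians were -0.594 and -0.721 and the counts 15 and 21. Mean levels were highest in stem cells for 29 of 47 members (61.7%, against 31.4% of all genes), in adult hepatocytes for 13 and in hepatocyte-like cells for 5.

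Between the hepatocyte kinds, 7 members were called higher on the hepatocyte-like side, 14.9% beside 13.9% of all genes, a share near the background. None was called lower, beside 9.12% of all genes by the same limma fit, and 3 members were lower at an unadjusted p under 0.05. Groups without overlap were found for 8 members higher and 4 lower, beside 24.3% and 20.9% of all genes. The median difference was 0.12 over the members and -0.04 over all genes. Its sign rested on single arrays: it was -0.0752 and -0.0538 without adult replicates 2 and 3 in turn, -0.0166 without hepatocyte-like replicate 3, and 0.0517 without hepatocyte-like replicate 2. Without adult replicate 1 it was 0.30, with 9 members higher and 0 lower, and with genes of a mean under 5 left out it was 0.246. No call was made in any comparison for 26 of the 47 members.

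**Figure D2:**
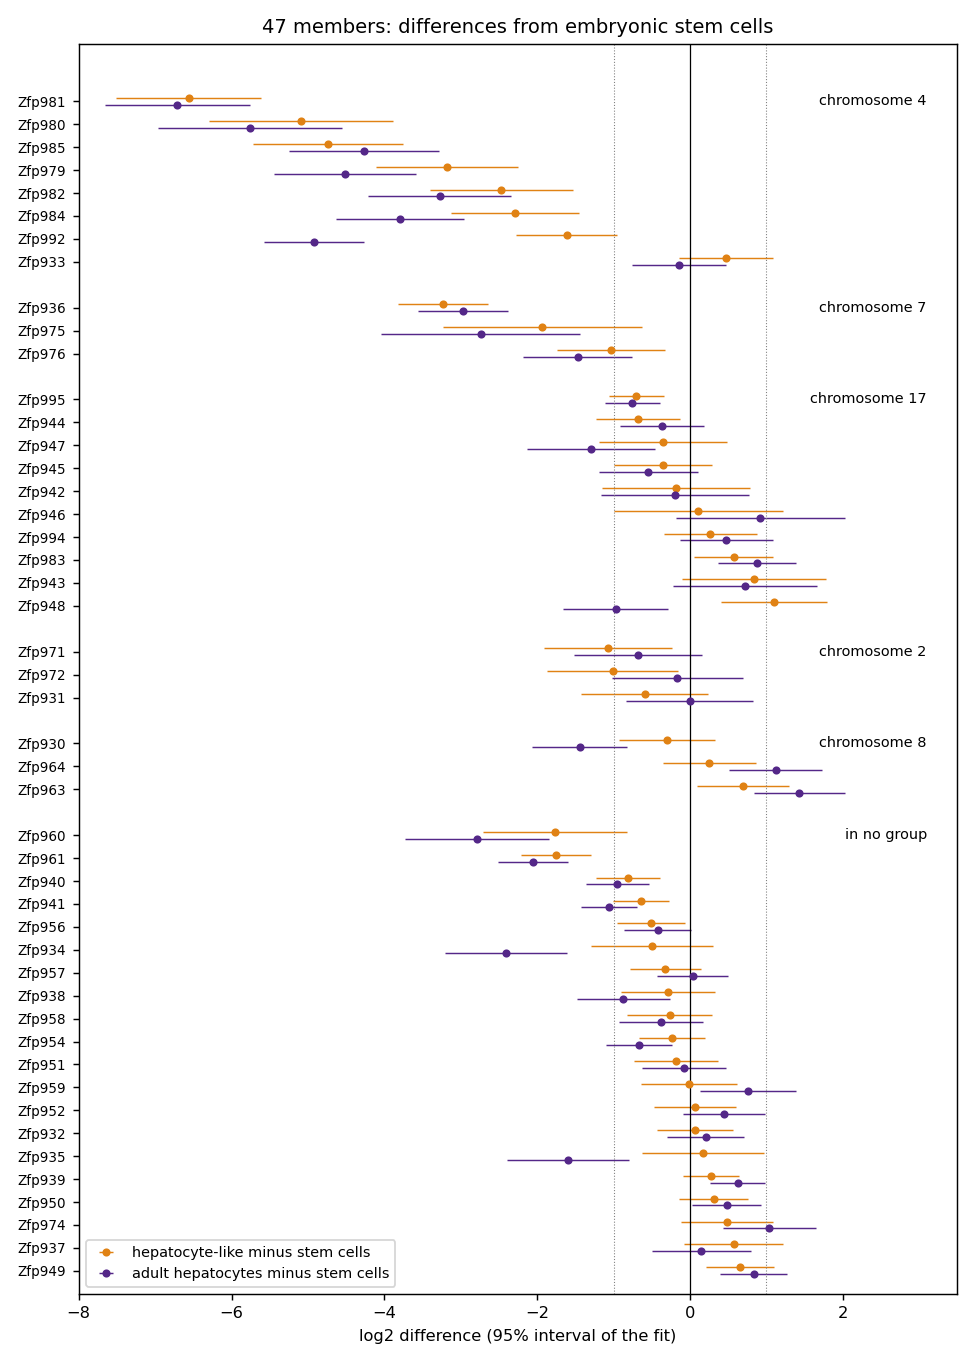
Log2 differences of the 47 members with 95% intervals from the fit (horizontal axis), for hepatocyte-like cells (orange) and adult hepatocytes (purple) minus embryonic stem cells; members are ordered by chromosome group and then by difference, and dotted lines mark -1 and 1. The chromosome 4 members Zfp981 and Zfp980 lie furthest to the left in both comparisons, Zfp933 of the same group lies at zero, and the chromosome 17 members spread around zero.

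The falls were grouped on chromosomes. Members were put in a group when neighbours in gene order lay at most 1000 kb apart by RefSeq gene positions on GRCm38.p6, and at least 3 members were so joined. That gave 5 groups holding 27 members: 10 members on chromosome 17, 8 on chromosome 4, and 3 each on chromosomes 2, 7 and 8. On chromosome 4, 7 of 8 members fell in hepatocyte-like cells and 7 of 8 in adult hepatocytes, and on chromosome 7, 3 of 3 fell in each comparison. On chromosome 17, 0 of 10 fell in the hepatocyte-like cells by the limma fit (2 were lower at an unadjusted p under 0.05) and 1 rose. Of the 20 members in no group, 2 fell in the hepatocyte-like cells, and 5 fell and 1 rose in adult hepatocytes. Outside the chromosome 4 group, 5 of 39 members fell in hepatocyte-like cells (12.8%) and 10 of 39 in adult hepatocytes (25.6%). Beside all these counts, 7.35% of all genes tested fell in hepatocyte-like cells and 8.61% rose. In adult hepatocytes 15.6% of all genes fell and 11% rose.

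The chromosome 4 members that fell are a sequence family. RefSeq promoter windows, each 250 bases before to 50 bases after a listed start, were available for 43 members. For 6 of the 7 members that fell (all but Zfp992, which had no window) the windows matched each other at 80.2% to 92.5% of the aligned bases in all 15 pairs. Where a gene had several windows, the combination with the most matching bases was taken for each pair. The window of Zfp933, the member of the group that did not fall, aligned with none of the 6 over 200 bases or more. The stretches printed here run between blocks that the 6 windows share letter for letter, and the same distance upstream of Zfp933 is shown to set the unlike member beside them. They are from RefSeq, build GRCm38.p6, 5′ to 3′ on the strand of the gene, and 57 to 84 bases lay between each stretch and its listed start. Capitals mark the first copy of each of the runs GCAAGCAAG, TGGGAAGCTAATTAA and TATTGGGCGGGT, and Zfp933 has none of them. In Zfp979, Zfp982, Zfp984 and Zfp985 GCAAGCAAG recurs in overlapping copies whose further letters are in lower case.
Zfp980, chr4:145670507-145670634, plus strand: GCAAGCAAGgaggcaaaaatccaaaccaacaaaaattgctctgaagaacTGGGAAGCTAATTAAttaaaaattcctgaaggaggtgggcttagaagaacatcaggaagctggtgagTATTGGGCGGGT
Zfp981, chr4:146514711-146514835, plus strand: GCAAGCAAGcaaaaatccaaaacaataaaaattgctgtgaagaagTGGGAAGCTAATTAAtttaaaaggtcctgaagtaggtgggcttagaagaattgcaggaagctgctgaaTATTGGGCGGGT
Zfp982, chr4:147492209-147492344, plus strand: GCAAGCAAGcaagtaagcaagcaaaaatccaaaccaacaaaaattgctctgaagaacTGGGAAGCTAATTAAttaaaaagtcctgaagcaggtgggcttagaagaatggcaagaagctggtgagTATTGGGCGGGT
Zfp985, chr4:147553080-147553219, plus strand: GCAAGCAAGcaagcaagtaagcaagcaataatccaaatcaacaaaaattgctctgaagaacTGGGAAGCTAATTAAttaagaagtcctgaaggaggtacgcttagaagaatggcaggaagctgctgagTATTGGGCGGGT
Zfp979, chr4:147642571-147642702, minus strand: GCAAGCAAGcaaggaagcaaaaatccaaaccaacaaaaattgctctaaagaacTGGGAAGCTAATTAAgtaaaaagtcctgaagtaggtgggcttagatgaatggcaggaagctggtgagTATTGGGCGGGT
Zfp984, chr4:147809864-147809995, minus strand: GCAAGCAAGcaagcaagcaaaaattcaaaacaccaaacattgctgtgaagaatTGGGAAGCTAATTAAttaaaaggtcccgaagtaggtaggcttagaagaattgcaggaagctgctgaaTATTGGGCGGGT
Zfp933, chr4:147848486-147848625, minus strand: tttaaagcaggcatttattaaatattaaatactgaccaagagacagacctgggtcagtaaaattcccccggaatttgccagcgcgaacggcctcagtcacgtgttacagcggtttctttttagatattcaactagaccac

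Among all 32851 mouse windows in the table, searched on both strands, TGGGAAGCTAATTAA was in 12 (0.0365%), all of genes on chromosome 4. Of these 12 genes, 10 were measured and 10 of 10 fell in each comparison with stem cells: the 6 members, and Zfp600, Zfp534, Rex2 and Gm13212, which lie in or beside the group. TATTGGGCGGGT was in the windows of 12 genes, 10 of them on chromosome 4. The other 2 were the chromosome 17 members Zfp947, which fell only in adult hepatocytes (-1.30), and Zfp994, which was not called (0.26 in hepatocyte-like cells and 0.47 in adult hepatocytes). GCAAGCAAG was in 166 windows (0.505%) and is not particular to these genes. The runs were found in members whose values were already known, so these counts describe and do not test.

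Zfp981 had the largest fall of the 47 members in both hepatocyte kinds. Its log2 levels were 11.89, 9.95, 11.53 and 10.41 on the stem cell arrays, 3.78, 5.03 and 4.34 on the hepatocyte-like arrays and 4.74, 4.14 and 3.83 on the adult arrays. All 4 stem cell arrays were far above the other 6, which overlapped each other. The differences from stem cells were -6.56 ± 0.44 (SE; adjusted p = 3.24e-07) in hepatocyte-like cells, 94.5-fold, and -6.71 ± 0.44 (adjusted p = 5.45e-08) in adult hepatocytes. Without stem cell replicates 1 and 3 they were -5.80 and -5.94.

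Zfp980 and Zfp985 were low to a like degree in both hepatocyte kinds. Zfp980 read 9.61, 7.39, 9.04 and 7.95 in stem cells, 3.48, 2.74 and 4.00 in hepatocyte-like cells and 2.79, 1.65 and 3.78 in adult hepatocytes. Its differences from stem cells were -5.09 ± 0.55 (adjusted p = 1.97e-05) and -5.76 ± 0.55 (adjusted p = 2.10e-06). The stem cell arrays did not overlap the others, while the hepatocyte kinds overlapped and differed by 0.67 ± 0.59 (adjusted p = 0.427). Zfp985 read 7.84, 6.14, 8.36 and 6.37 in stem cells, 2.55, 2.67 and 2.10 in hepatocyte-like cells and 3.28, 2.77 and 2.67 in adult hepatocytes. Its differences from stem cells were -4.74 ± 0.45 in hepatocyte-like cells and -4.27 ± 0.45 in adult hepatocytes, and the difference of -0.46 ± 0.48 between those kinds was not called (adjusted p = 0.503).

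Zfp979, Zfp984 and Zfp992 also fell in both kinds, but adult hepatocytes lay lower still. The step was widest for Zfp992, which read 11.05, 9.57, 10.14 and 9.78 in stem cells, 8.24, 8.84 and 8.47 in hepatocyte-like cells and 5.33, 4.94 and 5.38 in adult hepatocytes. None of the 3 kinds overlapped another. Its differences from stem cells were -1.62 ± 0.30 (adjusted p = 0.00126) and -4.92 ± 0.30 (adjusted p = 2.87e-08), and hepatocyte-like cells exceeded adult hepatocytes by 3.30 ± 0.32 (adjusted p = 3.43e-06), 9.86-fold.

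Zfp984 read 9.36, 7.62, 8.85 and 8.03 in stem cells, 6.19, 5.76 and 6.57 in hepatocyte-like cells and 5.14, 4.82 and 4.06 in adult hepatocytes. The 3 kinds lay in that order without overlap, with differences of -2.29 ± 0.39 and -3.79 ± 0.39 from stem cells and 1.51 ± 0.41 between the hepatocyte kinds (adjusted p = 0.0114). Without adult replicate 3 this last difference was 1.20 (adjusted p = 0.0601). Zfp979 read 8.77, 7.12, 8.66 and 7.29 in stem cells, 5.11, 4.88 and 4.35 in hepatocyte-like cells and 3.66, 2.68 and 4.00 in adult hepatocytes, in the same order. It fell by 3.18 and by 4.51 on the log2 scale (both SE 0.43), and its difference of 1.33 ± 0.46 between the hepatocyte kinds (adjusted p = 0.0371) was lost in 5 of 19 alternatives. It was 0.68 (adjusted p = 0.0242), under the minimum size, with the mean over the gene's transcript clusters. The others left out an array: it was 1.44 and 0.95 without adult replicates 1 and 2 in turn (adjusted p = 0.0564 and 0.165), and 1.17 and 1.28 without hepatocyte-like replicates 1 and 2 (adjusted p = 0.108 and 0.0853).

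Zfp982 fell by 2.47 ± 0.43 in hepatocyte-like cells and by 3.28 ± 0.43 in adult hepatocytes. It read 8.50, 6.41, 7.16 and 7.28 in stem cells against 4.93, 4.21 and 5.46 in hepatocyte-like cells and 4.38, 4.34 and 3.46 in adult hepatocytes. Stem cells stood above both, which overlapped. Zfp933, at the end of the group, read 6.32, 5.86, 6.35 and 5.68 in stem cells, 6.25, 6.60 and 6.72 in hepatocyte-like cells and 6.60, 5.86 and 5.26 in adult hepatocytes. Its 3 kinds overlapped, with differences of 0.47 ± 0.28 (adjusted p = 0.268) and -0.15 ± 0.28 (adjusted p = 0.728). The 7 members that fell were called in both comparisons under all 18 or 19 alternatives run for each, the removal of either pair of stem cell arrays included.

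**Figure D3:**
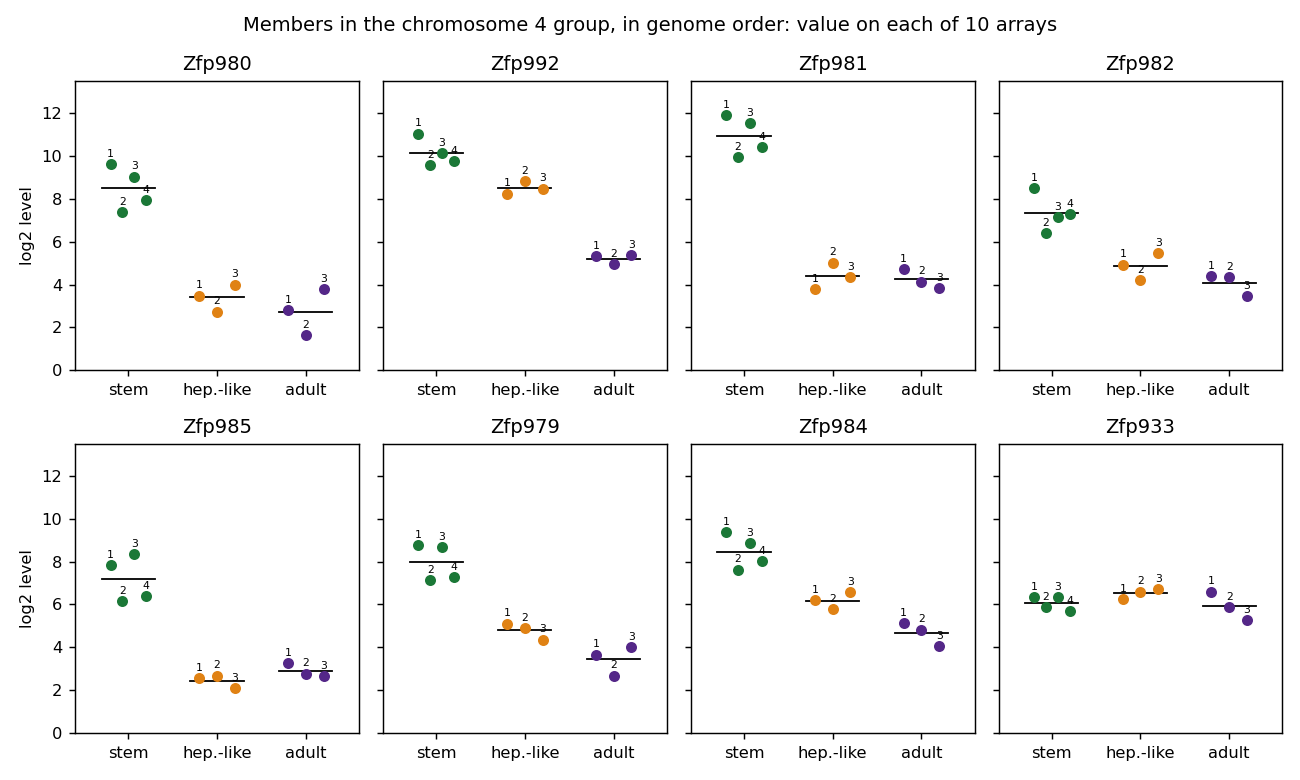
Log2 level on each array (vertical axis, replicate numbers beside the points) of the 8 chromosome 4 members in genome order, for embryonic stem cells, hepatocyte-like (hep.-like) cells and adult hepatocytes; black bars are means. The stem cell points of 7 members stand above all others, Zfp992 forms 3 separate levels, and Zfp933 overlaps across the kinds.

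Genes of other names between the chromosome 4 members were measured too. Of 9 such genes, 5 fell in hepatocyte-like cells and 6 in adult hepatocytes. They included the zinc finger genes Zfp600 (-3.09 and -3.99), Zfp534 (-4.14 and -5.01) and Rex2 (-4.70 and -6.04), and Gm21082 (-5.18 and -6.65). The genes 1700095A21Rik (-0.67 and -0.05), 4933438K21Rik (-0.30 and 0.12) and Rps19-ps3 (-0.20 and -0.60), which lie among them, were not called in either comparison. In the 1000 kb on either side, 5 of 29 genes fell in hepatocyte-like cells, beside 7.35% of all genes. In adult hepatocytes 10 of the 29 fell and 3 rose, beside 15.6% and 11% of all genes. With 500 kb as the largest gap, the group was the 5 members from Zfp982 to Zfp933, 4 of which fell in both kinds.

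**Figure D4:**
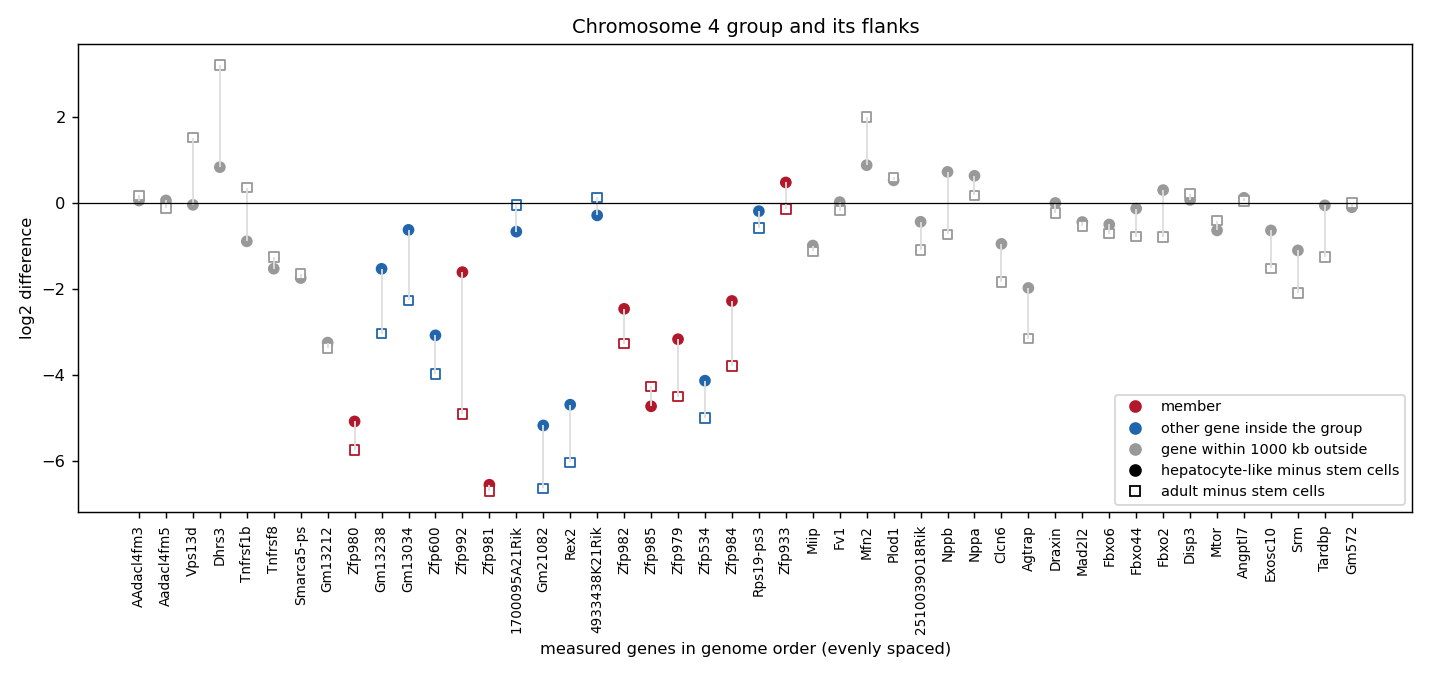
Log2 differences from embryonic stem cells (vertical axis) of all measured genes of the chromosome 4 group and the 1000 kb on either side, evenly spaced in genome order (horizontal axis); filled circles are hepatocyte-like cells, open squares adult hepatocytes, red members, blue other genes inside the group, grey genes outside. Low values alternate inside the group with genes near zero such as 1700095A21Rik, and Zfp933 lies at zero at the end of the group.

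Near-identical copies limit what a transcript cluster reads. The annotation gave 21 clusters that carry several symbols, at least 1 of them in this range, and 5 members (Zfp971, Zfp979, Zfp980, Zfp981 and Zfp992) were also among their symbols. These clusters were left out of the counts. The cluster of Zfp600, Zfp979, Zfp980, Zfp981 and Rex2 read 12.41, 11.16, 12.23 and 11.50 in stem cells, 7.86, 7.69 and 7.54 in hepatocyte-like cells and 4.86, 4.55 and 4.42 in adult hepatocytes. Its 3 kinds did not overlap. In a limma fit of all transcript clusters it differed from stem cells by -4.13 and -7.21 and between the hepatocyte kinds by 3.08. In the fit with 1 cluster per gene, Zfp979 was called between those kinds (1.33), and Zfp980 and Zfp981 were not. In the fit of all clusters that Zfp979 cluster was not called (adjusted p = 0.0655), and another cluster of the gene was higher in hepatocyte-like cells (1.02, adjusted p = 0.0205).

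Of the 4 clusters that carry Zfp991 and Zfp993, the copies nearest in name to Zfp992, all 4 fell in adult hepatocytes, by 2.69 to 6.41 on the log2 scale, and 3 fell in hepatocyte-like cells. In hepatocyte-like cells these 4 differed from stem cells by -1.49 to -0.75, and they were higher than in adult hepatocytes by 1.93 to 4.93. By their means, the order of the kinds was that of Zfp992. Some of these clusters, that with the fall of 6.41 included, also carry the symbol Zfp992, so the order is not independent of that gene. All 4 carry both Zfp991 and Zfp993, so they are not 4 separate results. Of 13 clusters shared by chromosome 2 genes such as Zfp966, Zfp967 and Zfp970, 8 fell in hepatocyte-like cells, with differences of -1.52 to -0.63. In adult hepatocytes 0 fell and 0 rose by the limma fit, with differences of -0.99 to 1.17. At an unadjusted p under 0.05, 1 was lower and 1 higher there. Against adult hepatocytes, 2 of the 13 were called lower in hepatocyte-like cells and 0 higher, with differences of -2.34 to -0.34. Of all genes, 9.12% were called lower in that comparison. Of the 13 clusters, 2 held identical values on every array and count as the same measurement. The 13 have symbols in common, so the 8 that fell are not 8 separate results.

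The single-symbol members of chromosome 2 pointed the same way without a call. Zfp971 read 6.85, 5.93, 6.79 and 5.66 in stem cells, 4.97, 5.30 and 5.45 in hepatocyte-like cells and 6.64, 5.28 and 4.97 in adult hepatocytes. Its hepatocyte-like arrays lay below every stem cell array, and the difference of -1.07 ± 0.39 had an adjusted p of 0.0553. Zfp972 differed by -1.01 ± 0.40 (adjusted p = 0.0774) and Zfp931 by -0.60 ± 0.38 (adjusted p = 0.303). In adult hepatocytes the 3 differed from stem cells by -0.68, -0.17 and 0.00. Their promoter windows were 80.1% to 97.0% identical, and none of the 3 was called by the limma fit, though 2 were lower in hepatocyte-like cells at an unadjusted p under 0.05.

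The 3 members of the chromosome 7 group, Zfp976, Zfp975 and Zfp936, fell in both hepatocyte kinds and also have like promoter windows, at 88.4% to 90.8% identity. The stretches printed next are again RefSeq GRCm38.p6, 5′ to 3′ on the strand of the gene, with 120 to 180 bases between each and its listed start. Capitals mark the runs CATCAGTGCACTCTCACCCTA and TGGGCCAGGAATC that bound them.
Zfp976, chr7:42642725-42642793, minus strand: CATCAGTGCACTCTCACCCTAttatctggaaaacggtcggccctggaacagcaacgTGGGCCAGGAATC
Zfp975, chr7:42692899-42692968, minus strand: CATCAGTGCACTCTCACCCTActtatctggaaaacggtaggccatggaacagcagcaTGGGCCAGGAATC
Zfp936, chr7:43177389-43177458, plus strand: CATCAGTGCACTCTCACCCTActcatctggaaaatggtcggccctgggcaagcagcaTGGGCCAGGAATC
The first run was in 5 of the 32851 windows and the second in 4. Of the genes that hold the first, 4 were measured and fell in both kinds: the 3 members and EU599041 (-3.06 in hepatocyte-like cells and -2.94 in adult hepatocytes). The genes with the second were the 3 members and Gm17768, which fell by 1.79 and by 2.15 on the log2 scale.

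Zfp936 read 8.57, 7.37, 8.14 and 7.37 in stem cells, 4.43, 4.82 and 4.64 in hepatocyte-like cells and 4.72, 4.84 and 5.10 in adult hepatocytes. The stem cell arrays stood apart and the other kinds overlapped. It fell by 3.23 ± 0.27 (adjusted p = 2.31e-06) and by 2.97 ± 0.27 (adjusted p = 1.36e-06), and was called under each of the 19 alternatives run for either comparison. The falls of Zfp975 (-1.93 ± 0.60, adjusted p = 0.0277) and Zfp976 (-1.03 ± 0.33, adjusted p = 0.0311) in hepatocyte-like cells were less firm. Without stem cell replicates 1 and 3 they were -1.26 (adjusted p = 0.241) and -0.47 (adjusted p = 0.264). Leaving out either of these arrays alone ended both calls (-1.65 and -0.77 without replicate 1, -1.77 and -0.92 without replicate 3). So did leaving out hepatocyte-like replicate 1 or 2 for Zfp975 (-1.85 and -1.71) and 2 or 3 for Zfp976 (-1.01 and -0.97).

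Zfp975 read 7.74, 6.13, 7.39 and 6.29 in stem cells, 4.78, 4.51 and 5.57 in hepatocyte-like cells and 5.91, 3.34 and 3.18 in adult hepatocytes. Its adult replicate 1 was well above the other adult arrays, though below all stem cell arrays. In adult hepatocytes it differed from stem cells by -2.74 ± 0.60 (adjusted p = 0.00217), and -2.06 (adjusted p = 0.0382) without stem cell replicates 1 and 3. Zfp976 read 7.15, 5.60, 6.70 and 5.98 in stem cells, 5.52, 5.27 and 5.18 in hepatocyte-like cells and 5.22, 5.08 and 4.37 in adult hepatocytes. Its lowest stem cell array was just above its highest hepatocyte-like array. In adult hepatocytes it fell by 1.47 ± 0.33 (adjusted p = 0.00255), and was at -0.90 without stem cell replicates 1 and 3, under the minimum size.

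The 10 members on chromosome 17 did not share a direction. Their differences in hepatocyte-like cells ran from -0.71 (Zfp995, adjusted p = 0.00599, below the minimum size for a call) to 1.10 (Zfp948), with a median of -0.04. In adult hepatocytes they ran from -1.30 (Zfp947) to 0.92 (Zfp946, not called), with a median of -0.28. Zfp942 and Zfp944 of this group had the most alike promoter windows of all 903 pairs, with 274 of 275 aligned bases matching (99.6%), and neither was called: -0.18 ± 0.44 and -0.68 ± 0.25 in hepatocyte-like cells, and -0.20 ± 0.44 and -0.36 ± 0.25 in adult hepatocytes.

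Zfp948, at the start of the chromosome 17 group, was the member that rose in hepatocyte-like cells. It read 7.71, 6.66, 7.18 and 6.49 in stem cells, 8.35, 7.78 and 8.21 in hepatocyte-like cells and 6.72, 5.67 and 5.72 in adult hepatocytes. The hepatocyte-like arrays were above all others, and the remaining kinds overlapped. It was higher than in adult hepatocytes by 2.08 ± 0.34 (adjusted p = 3.26e-04), which held under each of 19 alternatives. Against stem cells the rise of 1.10 ± 0.32 (adjusted p = 0.0194) was lost in 6 of 19 alternatives, with 0.67 (adjusted p = 0.208) without stem cell replicates 2 and 4 and 0.98 (adjusted p = 0.0686) without hepatocyte-like replicate 1. Removing hepatocyte-like replicate 3 (1.06, adjusted p = 0.0556), stem cell replicate 2 (0.98) or stem cell replicate 4 (0.93) ended the call as well. Zfp947 fell in adult hepatocytes by 1.30 ± 0.39 (adjusted p = 0.0155), from 5.03, 4.65, 5.26 and 4.69 to 4.34, 3.11 and 3.39. Its adult replicate 1 lay closest to the stem cell arrays, and the call was lost without adult replicate 2 (-1.04, adjusted p = 0.0832), without adult replicate 3 (-1.18, adjusted p = 0.0642) and without stem cell replicates 1 and 3 (-1.06, adjusted p = 0.126).

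Members of the chromosome 8 group went opposite ways in adult hepatocytes. Zfp930 fell by 1.45 ± 0.29 (adjusted p = 0.00113), with 7.23, 6.20, 6.62 and 6.44 in stem cells, 6.45, 5.92 and 6.59 in hepatocyte-like cells and 5.67, 4.60 and 5.25 in adult hepatocytes. Its adult arrays were below all others and the other kinds overlapped. Hepatocyte-like cells exceeded adult hepatocytes by 1.14 ± 0.31 (adjusted p = 0.0108), or by 0.85 (adjusted p = 0.056) without adult replicate 2. The neighbours Zfp963 and Zfp964 rose in adult hepatocytes, by 1.43 ± 0.28 (adjusted p = 8.58e-04) and 1.12 ± 0.28 (adjusted p = 0.00540).

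Zfp963 read 6.17, 5.94, 5.94 and 5.71 in stem cells, 6.35, 6.40 and 7.16 in hepatocyte-like cells and 8.08, 7.03 and 7.01 in adult hepatocytes. Adult replicate 1 was again the highest, and without it the rise was 1.08, still called. Zfp964 read 3.69, 2.93, 3.56 and 3.17 in stem cells, 3.90, 3.26 and 3.62 in hepatocyte-like cells and 5.15, 4.17 and 4.05 in adult hepatocytes. Its rise was 0.77 (adjusted p = 0.0253) without adult replicate 1, 0.98 (adjusted p = 0.0178) without stem cell replicate 2, and 0.83 (adjusted p = 0.0723) without stem cell replicates 2 and 4. The third member that rose in adult hepatocytes, Zfp974 on chromosome 7 (1.04 ± 0.28, adjusted p = 0.00836), read 4.56, 4.91, 3.71 and 4.32 in stem cells against 5.82, 5.01 and 5.41 in adult hepatocytes, which did not overlap. It lost its call in 5 of 18 alternatives, including both changes of array scaling (0.96 and 0.94), the removal of adult replicate 1 (0.84) and that of stem cell replicate 3 (0.82).

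Of the members in no group, Zfp960 on chromosome 17 and Zfp961 on chromosome 8 fell in both hepatocyte kinds. Zfp960 read 10.16, 8.46, 9.69 and 8.96 in stem cells, 7.20, 7.69 and 7.75 in hepatocyte-like cells and 7.45, 5.59 and 6.54 in adult hepatocytes. Stem cells stood above both kinds, which overlapped through adult replicate 1. It fell by 1.77 ± 0.43 (adjusted p = 0.00745) and by 2.79 ± 0.43 (adjusted p = 1.48e-04), and the former was -1.16 (adjusted p = 0.0874) without stem cell replicates 1 and 3. Zfp961 read 8.36, 8.09, 8.64 and 8.14 in stem cells, 6.51, 6.34 and 6.82 in hepatocyte-like cells and 6.68, 6.15 and 5.93 in adult hepatocytes. Its stem cell arrays were close together and clear of the rest, and its falls of 1.75 ± 0.21 and 2.05 ± 0.21 held under each of 19 alternatives.

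Zfp934 and Zfp935, both on chromosome 13, were low in adult hepatocytes alone. Zfp934 read 6.73, 4.97, 5.87 and 5.04 in stem cells, 5.16, 4.94 and 5.36 in hepatocyte-like cells and 2.84, 3.69 and 3.20 in adult hepatocytes. The adult arrays were below all 7 others, which overlapped. It differed by -2.41 ± 0.37 (adjusted p = 1.26e-04) from stem cells, and hepatocyte-like cells exceeded adult hepatocytes by 1.91 ± 0.39 (adjusted p = 0.00180). Zfp935 read 6.89, 5.13, 6.35 and 5.36 in stem cells, 5.81, 6.24 and 6.27 in hepatocyte-like cells and 4.76, 4.30 and 3.94 in adult hepatocytes, with the same order of adult arrays below the rest. Hepatocyte-like cells exceeded adult hepatocytes by 1.77 ± 0.39 (adjusted p = 0.00312), and adult hepatocytes differed from stem cells by -1.60 ± 0.37 (adjusted p = 0.00316), or -0.91 without stem cell replicates 1 and 3, under the minimum size. Zfp941 on chromosome 7 fell in adult hepatocytes by 1.06 ± 0.17 (adjusted p = 1.95e-04), at the edge of the minimum size, and by 0.96 without those stem cell arrays.

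The 26 members without a call included Zfp932 on chromosome 5, whose protein is known to bind and silence a class of endogenous retroviruses. It read 3.60, 4.02, 4.32 and 3.86 in stem cells, 4.10, 4.14 and 3.82 in hepatocyte-like cells and 4.68, 3.75 and 4.05 in adult hepatocytes, which overlapped throughout. Its differences of 0.07 ± 0.23 and 0.21 ± 0.23 were within that spread; it was picked by name and not by the rule for named genes. Signal was low for some members: 8 had a mean below 5 in all 3 kinds, and 2 of them were called. These were Zfp947 and Zfp964, which were called in adult hepatocytes against stem cells, as lower and higher in turn. Of the 4 members with several transcript clusters, Zfp937, Zfp939 and Zfp943 had none called in a fit of all transcript clusters. The 3 clusters of Zfp979 differed by -3.18, -1.21 and -0.88 in hepatocyte-like cells and by -4.51, -2.23 and -0.57 in adult hepatocytes, and in that fit the first 2 were called in both comparisons and the third in neither.

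Promoter windows were compared over all members as well. Of 903 pairs, 8 were at least 90% identical over at least 200 aligned bases and 23 at least 80%, and all 23 pairs lay within a chromosome group. The letters CCAAT, searched on both strands, were in 32 of 43 member windows (74.4%) and in 37.4% of all windows. They were in 13 of 13 windows of members that fell in adult hepatocytes and in 19 of 30 others. The 13 include the 6 alike windows of chromosome 4 and the 3 of chromosome 7, so they are not 13 separate sequences. Alike windows, such as those of chromosome 2, are also among the 30 others. Where a member had several windows, the one most like that of Zfp980, which holds CCAAT, was counted. The other 4 members that fell (Zfp930, Zfp934, Zfp960 and Zfp992) had no window. The letters GGGCGG, also on both strands, were in 41.9% of member windows and 35.7% of all windows. In TATTGGGCGGGT a reversed CCAAT and GGGCGG overlap, so that run counts for both. The member windows had a median of 8 CpG dinucleotides, against 7 in all windows, and the 6 alike windows of chromosome 4 had 3 to 9, with a median GC content of 44.0%.

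The co-repressor machinery that KRAB zinc finger proteins use was followed in a list of 25 symbols, drawn up from general knowledge, of which 21 were measured. Besides that machinery the list holds the zinc finger genes Zfp57 and Zfp809, which enter its counts. In hepatocyte-like cells 6 of the 21 fell against stem cells and 2 rose, beside 7.35% and 8.61% of all genes. In adult hepatocytes 15 fell and 1 rose, beside 15.6% and 11%. Against adult hepatocytes, 13 were higher in the hepatocyte-like cells and 0 lower by the limma fit, beside 13.9% and 9.12%, with 1 lower at an unadjusted p under 0.05. The medians from stem cells were -0.46 and -1.65, where those of all genes were -0.01 and 0.05.

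Trim28, the co-repressor that binds the KRAB domain, read 11.55, 11.64, 11.60 and 11.62 in stem cells, 10.12, 9.60 and 10.16 in hepatocyte-like cells and 8.27, 8.64 and 8.39 in adult hepatocytes. Its 3 kinds did not overlap. It fell by 1.65 ± 0.17 and by 3.17 ± 0.17. Setdb1, the histone H3 lysine methyltransferase that Trim28 recruits, was 0.86 ± 0.16 lower in hepatocyte-like cells, under the minimum size, and fell by 1.47 ± 0.16 in adult hepatocytes.

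Uhrf1, which brings the maintenance DNA methyltransferase to replicating DNA, had the largest fall of the list, -3.07 ± 0.28 and -4.89 ± 0.28, and that enzyme, Dnmt1, fell by 1.07 ± 0.22 and 3.31 ± 0.22. The histone deacetylase gene Hdac1 fell by 1.08 and 2.89, while Hdac2 was at 0.19 (not called) and fell by 1.85 in adult hepatocytes. Zfp57, which guards methylated imprinted regions, fell by 1.19 and 3.04. Zfp809, which silences retroviruses in stem cells, was not called at 0.31 and 0.01. Tasor, a subunit of the HUSH silencing complex, fell in hepatocyte-like cells (-1.36 ± 0.29) and not in adult hepatocytes (-0.68 ± 0.29, adjusted p = 0.0789), a difference between the hepatocyte kinds of -0.68 ± 0.31 that was not called. Pphln1, of the same complex, rose in hepatocyte-like cells by 1.09, and the remodeller gene Chd3 rose by 1.62 and 1.29. The other genes that fell in adult hepatocytes alone were Atf7ip, Cbx1, Cbx3, Cbx5, Chd4, Morc2a, Morc3 and Smarcad1, by 1.09 to 1.96.

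**Figure D5:**
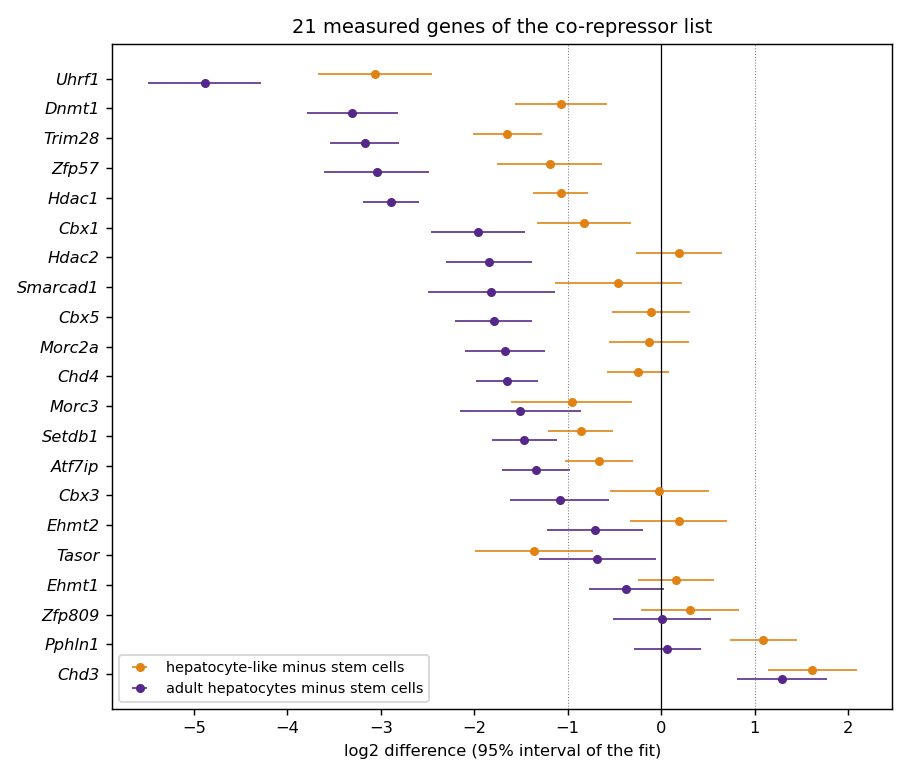
Log2 differences with 95% intervals from the fit (horizontal axis) of the 21 measured genes of the co-repressor list, Zfp57 and Zfp809 included. Orange is hepatocyte-like cells and purple adult hepatocytes, each minus embryonic stem cells, and dotted lines mark -1 and 1. Most purple points lie left of the orange points of the same gene, and Uhrf1 lies furthest to the left.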

How the data were processed

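RNA of 10 samples was biotin-labelled and hybridised to Affymetrix arrays, per the labels. The deposited values are log2 levels of 41345 transcript clusters. The submitters' processing notes name Transcriptome Analysis Console, R 3.3.1, oligo 1.38.0 and RMA without their roles, and the genome build is not given in the sources used here. The range of the deposited values, 1.27 to 13.58, shows a log2 scale. The number of arrays limits the precision, and no feature could be tested against its background.

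Of the clusters, 23521 had 1 gene symbol, 1814 several and 16010 none. The cluster with the highest mean was kept per symbol, and 22180 genes were fitted with group means of the 3 cell kinds by limma 3.58.1 under R 4.3.3 (lmFit, then eBayes; 2-sided tests; 7 residual degrees of freedom). Benjamini-Hochberg adjustment ran over all genes fitted. The fit was tested on simulated data. Clusters shared by several symbols, and the several clusters of a gene, were fitted with all 41345 clusters.

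The members and lists were chosen with earlier results of these data known. Named genes were the 8 called members with the largest difference each way per comparison, the members with the largest and smallest difference of hepatocyte-like from stem cells in each chromosome group, members with several clusters, called co-repressor genes, members with an array far from the others, and members with near-identical copies. For the last, promoter windows (RefSeq, GRCm38.p6) took the place of proteins, for which no table was at hand. The windows were aligned globally, with no penalty for gaps at their ends, with Biopython 1.88 under Python 3.11.15. Where a gene had several windows, the one most like that of Zfp980 gave the stretch printed and the member's letter and CpG counts. The identity of a pair came from the combination of windows with the most matching bases, which need not be the windows printed. The members named outside that rule (Zfp932, Zfp941, Zfp946, Zfp947, Zfp960, Zfp961, Zfp994) were chosen after their values were seen. Alternatives were another scaling, a minimum level, means over clusters, another variance model, the compared kinds alone, a replicate block, arrays left out and no minimum difference.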

Additional observations from a re-analysis of the deposited data

Results flagged for a closer look

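In 2 of the 47 members, stem cell replicate 2 lay far from the other 3 stem cell arrays by Dixon's criterion, which flags about 1 in 20 groups of 4 by chance. Zfp972, on chromosome 2, read 3.721 there, against 5.65, 5.66 and 5.38 on the other stem cell arrays, a gap of 0.856 of the range. Zfp983, on chromosome 17, read 4.681, against 4.98, 4.99 and 4.98, a gap of 0.974 of a narrow range.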

How the results depend on the processing

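Over the 3 comparisons there were 40 calls of members. Of these, 27 held under every alternative run and 13 were lost under at least 1. Of 753 alternative values, 715 were still called and 0 had changed sign. The 13 are given with their values where the members are described.

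The count of members that rose in hepatocyte-like cells against stem cells, 1, was 2 with no minimum difference and 3 without stem cell replicates 1 and 3. It was 0 without replicates 2 and 4. Leaving out an array in turn gave 0 to 1. The median difference of -0.322 became -0.0225 without stem cell replicates 1 and 3 and -0.594 without 2 and 4. The removal of stem cell replicates was chosen after seeing the data. The count that rose in adult hepatocytes, 3, was 1 with genes of a mean under 5 left out, 6 with no minimum difference and 1 to 4 with an array left out. The adult median of -0.546 was -0.776 with that filter, -0.183 without stem cell replicates 1 and 3, and -0.779 to -0.349 with an array left out. The median of 0.115 between the hepatocyte kinds ran from -0.0752 to 0.30 with an array left out. The 0 members lower in hepatocyte-like than in adult cells became 1 with no minimum difference, and 0 to 1 with an array left out. Of the co-repressor genes that rose in hepatocyte-like cells, 2, there was 1 with means over clusters and 1 without stem cell replicates 2 and 4; those that fell, 6, were 10 with no minimum difference; and the 1 that rose in adult hepatocytes was 0 with means over clusters. The cause of these changes was not tested, apart from the looser threshold.

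Same-numbered samples of different kinds had correlations of their deviations from -0.185 to 0.137, over 0.1 in 2 of 9 pairs, so the numbers were not taken to pair the samples. With the replicate number as a block, the members called in hepatocyte-like cells against stem cells were 0 higher and 13 lower, in adult hepatocytes against stem cells 3 higher and 19 lower, and between the hepatocyte kinds 7 higher and 0 lower. Co-repressor calls under the block were 2 higher and 7 lower, 1 higher and 15 lower, and 13 higher and 0 lower. A transcript cluster with 1 symbol may still read several near-identical copies, which was not tested. Over the 10 arrays 13 members had a mean under 5, and whether these were above background could not be tested here.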
